A study of Mus musculus with 6 samples.

Results

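The promoters of Cdkn1A and Cdkn1B, a pair of genes for cell-cycle inhibitors, were measured by targeted bisulfite sequencing in embryonic mouse cardiomyocytes after knockdown of DNMT1. Their members were the CpG sites (a cytosine followed by a guanine) listed under the regions Cdkn1A_1 and Cdkn1B_1 that had at least 10 cytosine calls in every sample. This left 29 of the 314 CpG sites tested in the series, with all 5 listed sites of Cdkn1A_1 and 24 of the 27 listed sites of Cdkn1B_1. The 3 sites left out, at positions 24, 28 and 34 of Cdkn1B_1, had 0 calls in all 6 samples. The second region designed for each gene, Cdkn1A_2 with 4 CpG sites and Cdkn1B_2 with 12, had no call at any CpG site.

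Cdkn1a encodes p21 and Cdkn1b encodes p27, the CIP/KIP proteins that bind cyclin-dependent kinases and hold cells back from entering S phase. Both are known for their part in the withdrawal of heart muscle cells from the cell cycle, and Cdkn1a is a textbook target of the transcription factor p53. DNMT1 is the maintenance methyltransferase that copies CpG methylation onto the new strand after DNA replication. Promoters that are rich in CpG are as a rule unmethylated, whereas promoters that are poor in CpG often carry methylation in cells of many kinds.

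The cells were primary ventricular cardiomyocytes of CD-1 mouse embryos at embryonic day 13.5, with the ventricles of each litter pooled before culture. Cultures received either DNMT1 siRNA (a commercial pool of 4 siRNAs) or AllStars negative control siRNA, both at 12 nM, and cells were collected 72 h later and sorted magnetically on VCAM1, with 3 samples per treatment. By the stated protocol, control and knockdown cultures were grown, transfected and sorted in the same way and differed in the siRNA. The sources do not say whether the groups were handled together. The assay held DNA of 15 target genes and no expression, so neither the cell type nor the level of DNMT1 could be checked here. The p-values of tests over replicates cover only the spread between samples that are not said to come from separate litters. Those of the logistic regression, used below site by site, treat every call as independent and cover counting error only. The 6 libraries held 26793215 to 32253280 cytosine calls, with a median of 6739 to 8710 calls per CpG site.

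Both regions were placed on the mouse genome (GRCm38.p6) by the spacing and sequence context of their listed cytosines, searched only around the named gene. The best place matched at 100% of positions. The next best matched at 14.7% for Cdkn1A_1 and 9.9% for Cdkn1B_1. Cdkn1A_1 lay at chr17:29090475-29090898 on the plus strand, from −501 to −78 bp relative to the first annotated start of Cdkn1a (ENSMUSG00000023067.14), and overlapped no annotated gene or exon. A second cluster of Cdkn1a starts began at 29093769, so the same region lay at −3294 to −2871 bp from that start. Cdkn1B_1 lay at chr6:134919793-134920195 on the plus strand, from −608 to −206 bp relative to the first start of Cdkn1b (ENSMUSG00000003031.14), and also overlapped no gene or exon. Positions below count from the first base of each region as deposited.

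The promoters differed in base composition. Cdkn1A_1 held 5 CpG in 424 bp, or 1.18 per 100 bp, with a GC content of 48.6% and an observed over expected CpG ratio of 0.20. Cdkn1B_1 held 27 CpG in 403 bp, or 6.70 per 100 bp, with a GC content of 65.3% and a ratio of 0.63. Among 32851 RefSeq promoter windows of the same assembly, 31.4% had a lower CpG density than Cdkn1A_1 and 75.2% a lower density than Cdkn1B_1. These windows are 300 bp long and span a start, whereas both measured regions end upstream of it. The windows at the upstream Cdkn1a start and at the Cdkn1b start held 0.67 and 10.0 CpG per 100 bp. Of all windows, 14.1% and 88.3% had a lower density than these. The window at the downstream Cdkn1a starts, which was not part of the assay, held 23 CpG in 300 bp, or 7.67 per 100 bp, so the label of a CpG-poor promoter applies to the upstream start of Cdkn1a that was measured.

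The 5 Cdkn1A_1 sites are shown because each carried a measurable level of methylation. Each line gives the reference plus strand with the measured CpG in capitals, at chr17:29090538-29090579, chr17:29090578-29090619, chr17:29090676-29090717, chr17:29090828-29090869 and chr17:29090847-29090888 in order.
Cdkn1A_1 position 84: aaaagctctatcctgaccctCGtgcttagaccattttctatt
Cdkn1A_1 position 124: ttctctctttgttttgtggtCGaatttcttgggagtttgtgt
Cdkn1A_1 position 222: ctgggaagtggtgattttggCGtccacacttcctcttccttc
Cdkn1A_1 position 374: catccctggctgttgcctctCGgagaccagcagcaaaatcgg
Cdkn1A_1 position 393: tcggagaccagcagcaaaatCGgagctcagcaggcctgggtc
The sites at 374 and 393 were 19 bp apart, so their windows overlap, and the sites at 84 and 124 were 40 bp apart. The site at 222 was the most isolated, with 98 bp to its nearest neighbour.

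The stretch of Cdkn1B_1 that holds 23 of its 24 tested sites is shown for contrast, since its CpG density is what sets it apart from Cdkn1A_1. It covers chr6:134919901-134920181 on the plus strand, with the tested CpG in capitals.
Cdkn1B_1 run of tested sites: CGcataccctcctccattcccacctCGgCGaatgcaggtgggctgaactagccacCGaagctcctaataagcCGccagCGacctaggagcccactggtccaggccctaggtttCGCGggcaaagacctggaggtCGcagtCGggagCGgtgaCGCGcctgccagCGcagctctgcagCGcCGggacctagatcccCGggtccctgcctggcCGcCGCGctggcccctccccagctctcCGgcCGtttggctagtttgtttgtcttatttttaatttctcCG
Neighbouring sites within this run lay 2 to 37 bp apart, and the remaining tested site, at position 58, lay 55 bp before it, so many of them were read on the same molecules and are not independent of one another.

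Neither measured region held a match, on either strand, to the letters GGGCGG (a GC box), CCAAT or CACGTG (an E-box), or to the p53 half-site. Of the RefSeq promoter windows, 35.7%, 37.4%, 7.15% and 8.36% held a match to the 4 motifs in that order, in windows of 300 bp against regions of over 400 bp. The window at the Cdkn1b start, chr6:134920151-134920450, begins within the end of Cdkn1B_1 and held 1 GC box and 3 CCAAT matches. That at the upstream Cdkn1a start held 0 of either. The absence of matches thus applies to the measured regions and not to the whole promoters. A search for p53 half-sites from the start of Cdkn1A_1 to the first Cdkn1a start, made after the sequence had been seen, found matches just past the end of Cdkn1A_1. These were GGACTAGCTT at chr17:29090906-29090915, 39 bp past the last measured CpG and at −70 bp from the first start, and GAACATGTCT at chr17:29090928-29090937, 61 bp past that CpG and at −48 bp. No cytosine of these matches was measured.

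Coverage along the regions was uneven, as shown in the plot of calls by position. The 5 Cdkn1A_1 sites had 384 to 4663 calls per library, with the fewest at positions 222 and 393. In Cdkn1B_1, the first 54 listed cytosines, up to position 160, were also listed in the same order under Cdkn1B_2. They had a median of 861 to 1159 calls per library, with 13 to 15 of the 54 at 0, against a median of 6149 to 8414 calls and none of 87 at 0 over the rest of the region. The positions listed as Cdkn1C_2 were the same 104 cytosines as those of Cdkn1B_2 and lay at the Cdkn1b promoter. Neither entry had a call at any CpG site, so neither gave a second reading of Cdkn1B. By its place, Cdkn1C_2 could not read Cdkn1C. Calls rose along the shared stretch, to a median over the libraries of 6174 at position 160. Cdkn1A_1 also had few calls toward both of its ends. Whether reads of the shared 156 bp were lost between entries was not tested.

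**Figure D1:**
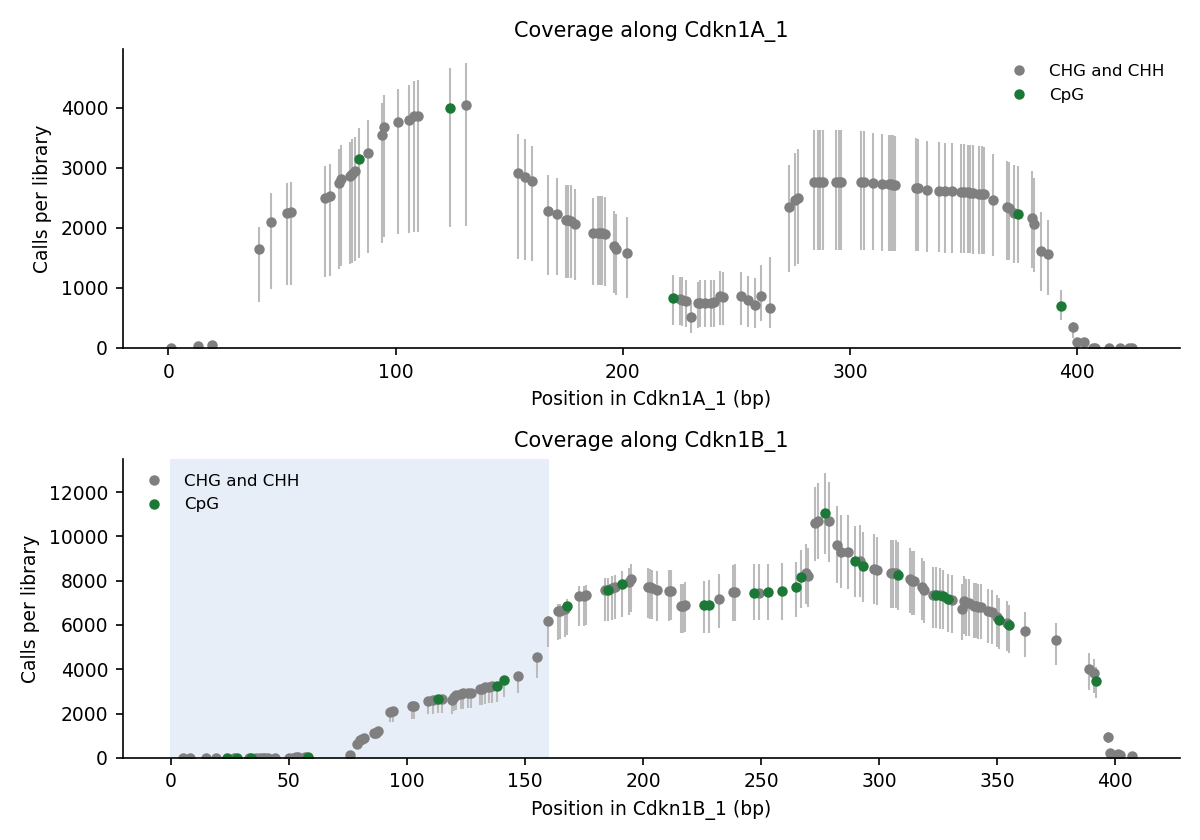
Calls per library (linear axis) against position in base pairs along Cdkn1A_1 (top) and Cdkn1B_1 (bottom); points are the median of the 6 libraries, lines run from the lowest to the highest library, and the shaded stretch of Cdkn1B_1 is shared with Cdkn1B_2. The median over the positions of Cdkn1B_1 is at most 1159 calls per library in the shared stretch and at least 6149 past it. Coverage rises within the stretch, to 6174 calls at position 160, and falls again at the far end, to 68.5 at position 407.

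The CpG-poor Cdkn1A_1 promoter was methylated in every control sample and was lower after DNMT1 siRNA. Its mean over the 5 sites was 62.39%, 58.84% and 59.67% in the negative siRNA replicates 1 to 3, and 46.98%, 40.77% and 39.07% in the DNMT1 siRNA replicates 1 to 3. Every knockdown sample lay below every control sample. The group means were 60.3% ± 1.86 (SD, n = 3) and 42.28% ± 4.16 (SD, n = 3), a difference of −18.03 percentage points, so that 70.1% of the control level was kept. The two-sided exact permutation test gave p = 0.1, the smallest value that 3 against 3 samples allow.

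Site by site, all 5 CpG of Cdkn1A_1 were called lower by logistic regression of the methylated and unmethylated calls, with a Benjamini-Hochberg adjusted p under 0.05 and a pooled difference above 5 percentage points. Over all 314 CpG sites of the series, 37.6% were called lower by the same rule. The quasi-binomial F test, which lets replicates vary more than counting error, called 4 of the 5, against 19.4% of all tested sites. All DNMT1 siRNA replicates lay below all negative siRNA replicates at 4 of the 5 sites, and at 43.9% of all tested sites. The median difference of group means was −19.98 points over the 5 sites, and it was −2.30 points over all 314 tested sites and −14.38 points over the 78 with a control level above 40%.

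The site at position 84 (chr17, 29090558), at −418 bp from the first start, was the most methylated. It measured 79.59%, 76.84% and 80.63% in the controls and 56.93%, 55.36% and 54.07% after DNMT1 siRNA, from 1500 to 3661 calls. The groups did not overlap, and the means fell from 79.02% ± 1.96 to 55.45% ± 1.44 (SD, n = 3 each). The pooled difference of −23.45 points was the largest of the 5 (adjusted p = 3.29e-244 by logistic regression and 0.00586 by the quasi-binomial F test).

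The site at position 124 (chr17, 29090598) read 55.4%, 49.24% and 53.33% in the controls and 38.73%, 30.98% and 28.31% in the knockdown samples. With 2010 to 4663 calls it was the most deeply covered site of the region. Its groups were also apart, at 52.66% ± 3.14 and 32.67% ± 5.41 (SD, n = 3 each), and it kept 62.1% of its control level, the lowest share of the 5. The pooled difference was −19.09 points (adjusted p = 2.48e-183 by logistic regression and 0.0356 by the quasi-binomial F test).

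The isolated site at position 222 (chr17, 29090696) read 63.96%, 62.99% and 58.34% in the controls and 39.69%, 46.25% and 43.49% after DNMT1 siRNA, on 384 to 1207 calls. Again no sample of one group reached the other. The means were 61.76% ± 3.00 and 43.14% ± 3.29 (SD, n = 3 each), with a pooled difference of −18.23 points (adjusted p = 6.1e-37 by logistic regression and 0.0273 by the quasi-binomial F test).

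The site at position 374 (chr17, 29090848), at −128 bp from the first start, differed from the other 4. Its values were 46.64%, 36.07% and 40.26% in the controls and 50.14%, 25.64% and 25.85% in the DNMT1 siRNA samples, so that DNMT1 siRNA replicate 1 was the highest of all 6 and the other two knockdown samples were the lowest. The means of 40.99% ± 5.32 and 33.88% ± 14.1 (SD, n = 3 each) differed by less than the spread between the knockdown replicates. Logistic regression called the pooled difference of −5.33 points (adjusted p = 5.79e-10), whereas the quasi-binomial F test did not (adjusted p = 0.667), since the replicates varied with 125 times the variance of counting error. Without DNMT1 siRNA replicate 1 the pooled difference was −14.82 points (adjusted p = 9.83e-57), and without replicate 2 it was 1.24 points in the other direction (adjusted p = 0.25, both by logistic regression). Without DNMT1 siRNA replicate 3 or negative siRNA replicate 1 it was −2.92 and −3.39 points, under the 5-point limit.

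The site at position 393 (chr17, 29090867), only 19 bp further on, was steady between replicates. It read 66.38%, 69.05% and 65.79% in the controls and 49.4%, 45.65% and 43.66% after DNMT1 siRNA, on 465 to 966 calls. The groups stood apart at 67.08% ± 1.74 and 46.23% ± 2.91 (SD, n = 3 each), with a pooled difference of −20.13 points (adjusted p = 6.22e-39 by logistic regression and 0.00876 by the quasi-binomial F test). DNMT1 siRNA replicate 1, which was high at position 374, read the highest of the knockdown samples here too but stayed below the controls.

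**Figure D2:**
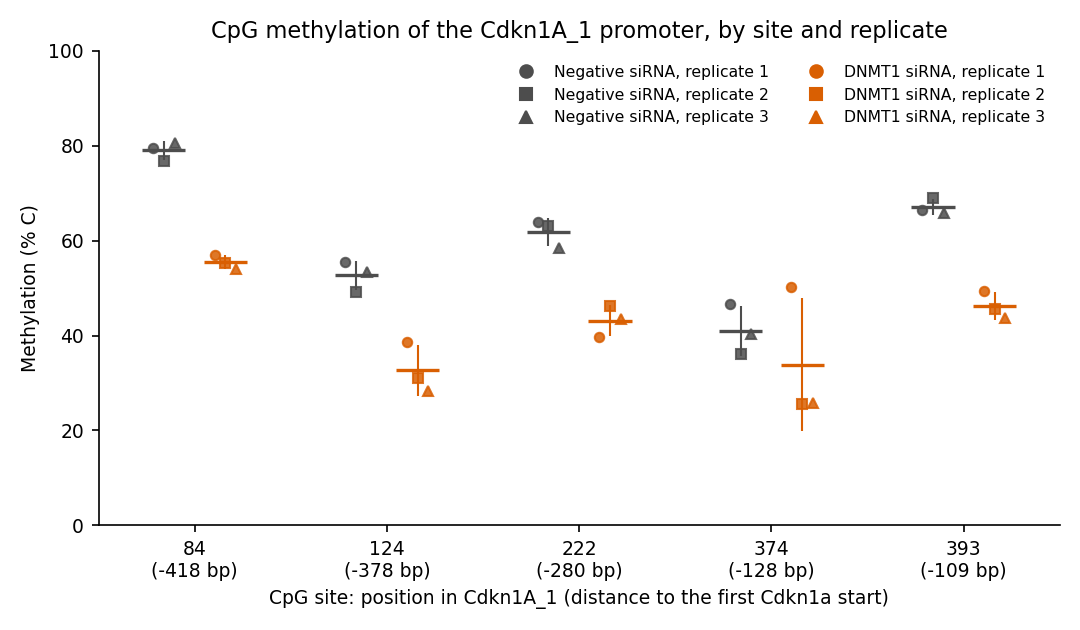
Methylation in % C (linear axis) at the 5 CpG sites of Cdkn1A_1, by position and by distance in bp to the first Cdkn1a start; points are single replicates, horizontal bars the group mean and vertical lines 1 SD (n = 3). The orange DNMT1 siRNA points lie below the gray negative siRNA points at every site except 374, where DNMT1 siRNA replicate 1 is at 50.14%.

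Leaving out the site at 374, a choice made after its values were seen, gave a mean of 65.13% ± 1.04 in the controls and 44.38% ± 1.91 in the knockdown samples (SD, n = 3 each), a difference of −20.75 points with the groups apart (p = 0.1, two-sided exact permutation test). The other 4 sites kept 62.1% to 70.2% of their control level, although that level ranged from 52.66% to 79.02%. The kept share at 374 was 82.6%.

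The CpG-rich Cdkn1B_1 promoter was almost free of methylation in both groups. In the negative siRNA samples the 24 site means ran from 0.078% to 4.41% with a median of 0.179%, and 22 of the 24 were below 1%. After DNMT1 siRNA the median was 0.162%. Over all tested sites of the series, 118 of 314 (37.6%) had a control mean below 1%, and the median of the control means was 8.60%.

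No Cdkn1B_1 site was called lower or higher at the 5-point limit. A fall of that size was not possible here, since no control mean exceeded 4.41%, and the largest pooled difference was 0.39 points. Without a limit on size, logistic regression gave an adjusted p under 0.05 for 6 sites that were lower and 1 that was higher, of 24. Of all 314 tested sites, 65.9% were lower and 7.64% higher by that rule. These shares are over sites of every level, with a median control mean of 8.60%, whereas 22 of the 24 Cdkn1B_1 sites were below 1%. Whether the share of Cdkn1B_1 differed from that of sites at a like level was not tested. The quasi-binomial F test gave an adjusted p under 0.05 for 0 of the 24, against 21.7% of all tested sites that were lower by it. At an unadjusted p under 0.05 it gave 3 lower and none higher of the 24, against 37.3% lower of all tested sites. By limma 2 of the 24 were lower at an adjusted p under 0.05, against 28.3% of all tested sites. Replicate groups were apart at 4 of the 24 sites, all lower, and overlapped at the other 20. Of all tested sites, 43.9% had every DNMT1 siRNA replicate below every negative siRNA replicate.

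The most methylated well-covered site was at position 141, which read 1.36%, 1.47% and 1.24% in the controls and 1.07%, 1.06% and 1.17% after DNMT1 siRNA. The knockdown samples were all below the controls, by 0.25 points on pooled calls, but it did not reach an adjusted p under 0.05 by any of these tests. The site at position 277, the highest past the shared stretch, read 0.599%, 0.624% and 0.643% against 0.247%, 0.410% and 0.475%, and its groups were also apart. It had the smallest adjusted p of the region by logistic regression (4.01e-05, pooled difference −0.23 points), and did not pass the quasi-binomial F test (adjusted p = 0.105).

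The sites at positions 247 and 293 also had groups that did not overlap. Position 247 read 0.187%, 0.175% and 0.263% in the controls and 0.145%, 0.0801% and 0.0801% after DNMT1 siRNA (adjusted p = 0.00368 by logistic regression and 0.0499 by limma). Position 293 read 0.170%, 0.295% and 0.146% against 0.110%, 0.0794% and 0.0490% (adjusted p = 0.000122 by logistic regression and 0.0463 by limma). The pooled differences were −0.11 and −0.13 points. The share of C at non-CpG cytosines of Cdkn1B_1 was 0.163% to 0.190% in the controls and 0.170% to 0.180% after DNMT1 siRNA. At both sites the knockdown values were below that background, and the control values lay on both sides of it.

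The remaining sites with an adjusted p under 0.05 by logistic regression had overlapping groups. Position 113 had a difference of −0.39 points on pooled calls, with controls at 0.693%, 1.30% and 0.851% and knockdown samples at 0.329%, 0.296% and 1.07%, so that DNMT1 siRNA replicate 3 exceeded 2 of the 3 controls. Positions 253 and 259 had pooled differences of −0.11 and −0.12 points. Position 355 was the one that was higher, at 0.169%, 0.0515% and 0.159% in the controls and 0.117%, 0.179% and 0.347% after DNMT1 siRNA. The third of the least covered sites, position 138, had means of 0.180% ± 0.050 and 0.132% ± 0.092 (SD, n = 3 each) on 2502 to 3317 calls.

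The least covered site, at position 58, had the highest means but only 16 to 33 calls per library. Its methylated calls were 0 of 26, 1 of 22 and 2 of 23 in the controls and 2 of 16, 0 of 21 and 1 of 33 in the knockdown samples. The highest of these, 12.5% in DNMT1 siRNA replicate 1, had a Wilson 95% confidence interval of 3.50% to 36.0%. The count of 0 of 26 allows a level of up to 11.5%, and 0 of 21 one of up to 14.3%. No difference was detectable at this depth.

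**Figure D3:**
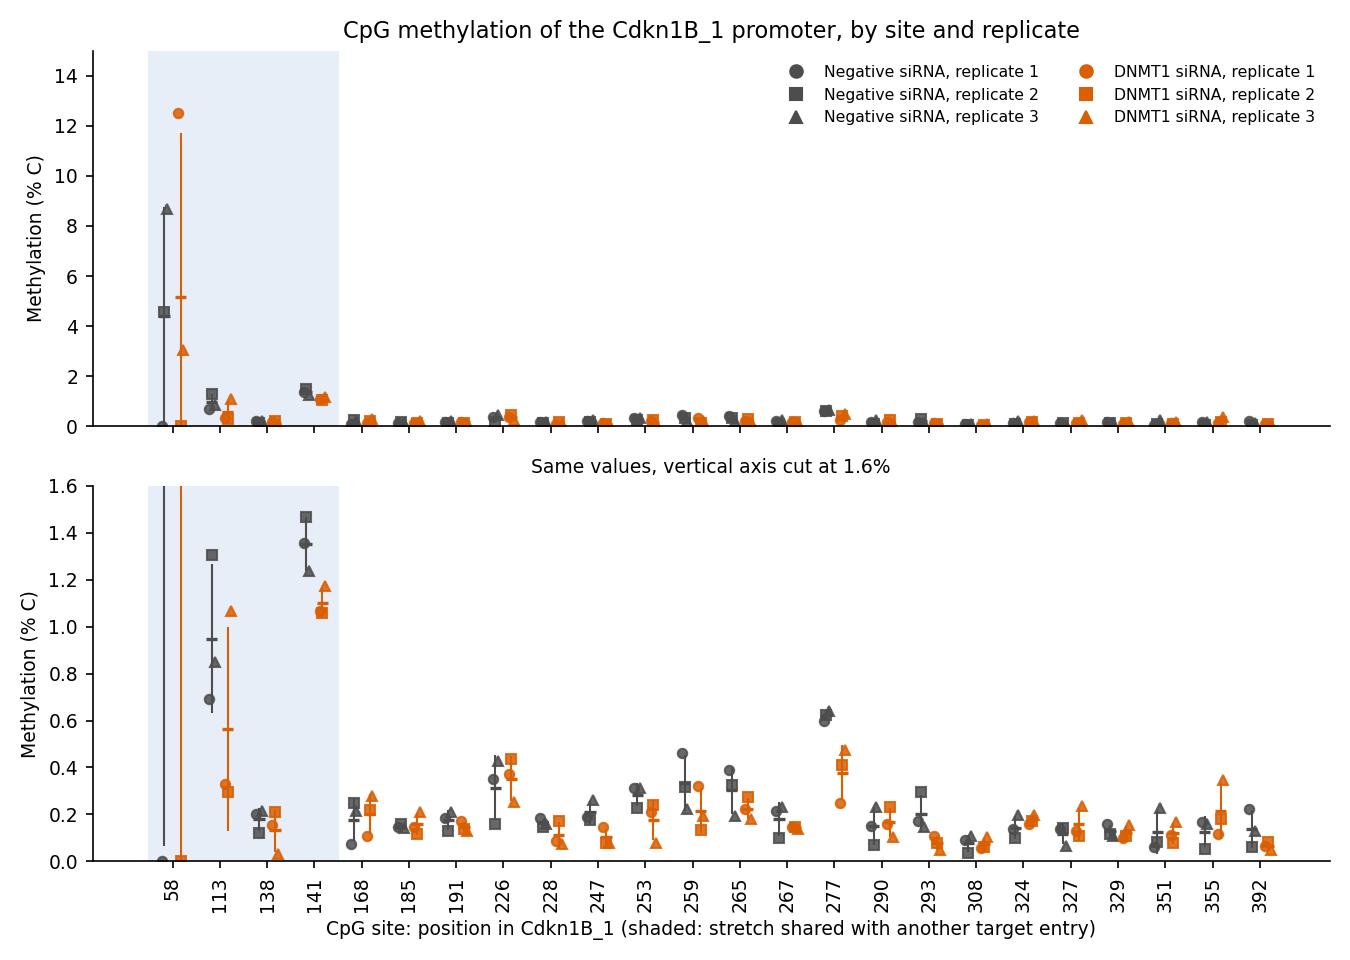
Methylation in % C (linear axes) at the 24 tested CpG sites of Cdkn1B_1 by position; points are single replicates, horizontal bars the group mean, vertical lines 1 SD (n = 3), and the shading marks the stretch shared with Cdkn1B_2. The upper panel shows all values and the lower panel those up to 1.6%: past position 58 every site is below 1.5%.

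The mean of Cdkn1B_1 depended on this thin site. Over all 24 sites it was 0.277%, 0.458% and 0.641% in the controls and 0.719%, 0.210% and 0.367% after DNMT1 siRNA. The groups overlapped, at 0.459% ± 0.182 and 0.432% ± 0.261 (SD, n = 3 each), with a difference of −0.027 points (p = 0.9, two-sided exact permutation test). With a coverage minimum of 100 calls, which removed position 58, the controls read 0.289%, 0.280% and 0.291% and the knockdown samples 0.206%, 0.219% and 0.251%. The groups were then apart by −0.062 points, and p = 0.1 is the smallest value this exact permutation test allows. Past the shared stretch, over 20 sites, the means were 0.206% ± 0.024 and 0.169% ± 0.008 (SD, n = 3 each), with the groups apart by −0.036 points (p = 0.1, exact permutation test).

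Non-CpG cytosines, which should read as T after full conversion, gave the background of the assay. In Cdkn1B_1 the share of C at these positions was 0.190%, 0.163% and 0.173% in the controls and 0.170%, 0.176% and 0.180% after DNMT1 siRNA (difference 0.00031 points, p = 1 by the two-sided exact permutation test). In Cdkn1A_1 it was 0.653%, 0.203% and 0.212% in the controls and 0.240%, 0.275% and 0.211% in the knockdown samples. Negative siRNA replicate 1 stood above the other 5 libraries there, with 16 of 97 non-CpG cytosines above 1% against 4 to 6 in the others. These 97 had 15 to 4733 calls per library, at least 10 in each. That library also had the highest non-CpG share in Cdkn1B_1, by a smaller margin (0.190% against 0.180% in the next), and its CpG sites in Cdkn1A_1 read 62.39%.

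Within a sample, the mean over the CpG sites of Cdkn1B_1 exceeded the non-CpG share by 0.087, 0.296 and 0.469 points in the controls and by 0.549, 0.033 and 0.187 points after DNMT1 siRNA. The mean excess of 0.27 points was above 0 in all 6 samples (p = 0.03125, the smallest value of the two-sided exact sign-flip test over 6 samples). Here the CpG mean is unweighted over sites, whereas the non-CpG share pools calls. With both unweighted the excess was 0.166 points (p = 0.25, exact sign-flip test). With both weighted by coverage it was 0.053 points (p = 0.03125, exact sign-flip test). With the coverage minimum of 100 calls the excess was 0.081 points (p = 0.03125, exact sign-flip test). Past the shared stretch the excess was 0.025, 0.017 and 0.047 points in the controls and −0.0088, −0.0032 and −0.0052 points after DNMT1 siRNA. The unweighted CpG mean of these 20 sites was thus above the pooled non-CpG share in all 3 controls and below it in all 3 knockdown samples. The group difference was −0.035 points (p = 0.1, two-sided exact permutation test). Over all 6 samples, where the groups have opposite signs, the mean was 0.012 points (p = 0.2812, exact sign-flip test). Whether these small signs hold with matched weighting was not tested. Position 277, the highest of the 20 sites in the controls, had Wilson 95% lower limits of 0.460%, 0.492% and 0.512% there, above the pooled non-CpG share. These limits cover counting error only. Whether single non-CpG cytosines of Cdkn1B_1 reached this level was not tested.

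**Figure D4:**
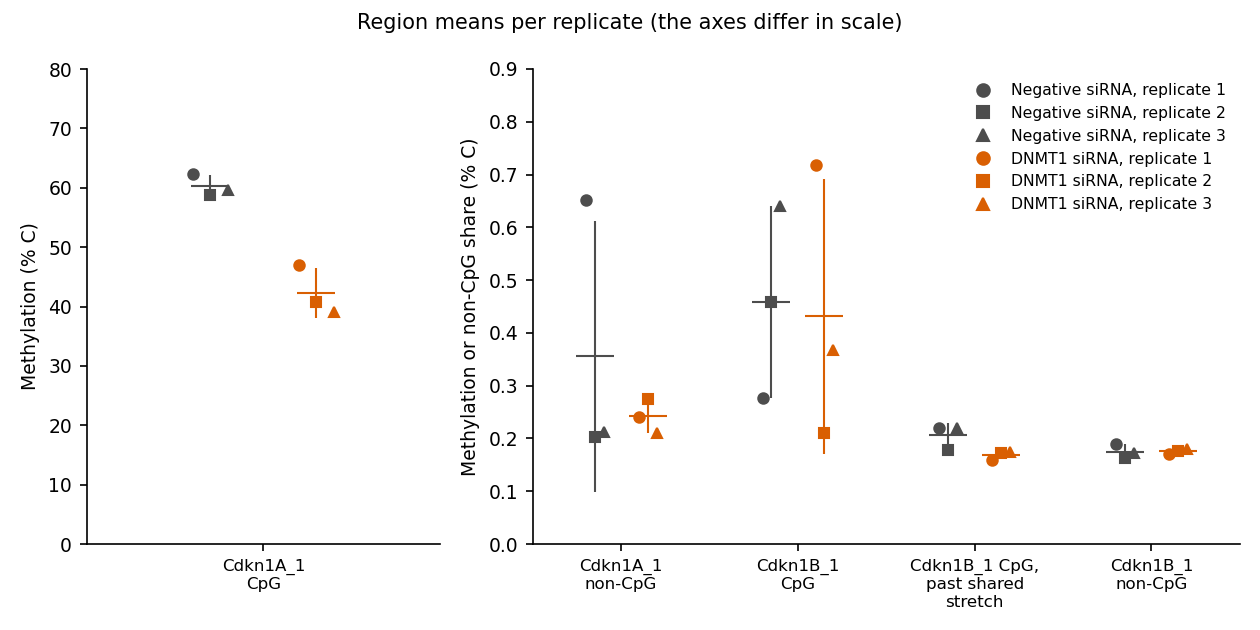
Region means per replicate in % C, with Cdkn1A_1 CpG on the left (axis 0 to 80) and the low values on the right (axis 0 to 0.9, also linear); horizontal bars are group means and vertical lines 1 SD (n = 3). Cdkn1A_1 separates by group, while the Cdkn1B_1 CpG means past the shared stretch (0.206% in controls and 0.169% after DNMT1 siRNA) lie within 0.05 points of the non-CpG shares.

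The promoters were compared with each other within each sample. Cdkn1A_1 exceeded Cdkn1B_1 by 62.12, 58.38 and 59.03 points in the controls and by 46.26, 40.56 and 38.71 points after DNMT1 siRNA. The mean gap of 50.84 points was in the same direction in all 6 samples (p = 0.03125, two-sided exact sign-flip test). The gap was smaller in every knockdown sample than in every control, by −18.0 points (p = 0.1, two-sided exact permutation test), which is the test of the difference in response between the promoters. A fall of this size could not have occurred at Cdkn1B_1, whose control level was 0.459%.

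Among the 26 regions with tested sites, Cdkn1A_1 ranked sixth by control mean and Cdkn1B_1 ranked 23rd. By Euclidean distance over the 6 sample means, the region most like Cdkn1A_1 was NPPB_2, at 9.84 points, which read 56.55% ± 4.56 in the controls and 41.84% ± 1.85 after DNMT1 siRNA (SD, n = 3 each). Myh7_1 and Tnnt2_1 followed at 13.34 and 13.58 points. These are promoters of a natriuretic peptide and of sarcomere proteins of heart muscle, and their control means of 59.6% ± 2.35 and 56.58% ± 3.65 were not separate from that of Cdkn1A_1 beyond their spread. The regions most like Cdkn1B_1 were Camta1_1, Camta2_1 and Camta1_2, at 0.447, 0.731 and 3.03 points.

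The third CIP/KIP gene of the assay, Cdkn1C, encodes p57. Its region Cdkn1C_1, with 54 tested CpG sites, lay between the other two promoters. It read 25.18%, 23.57% and 19.44% in the controls and 16.63%, 20.79% and 18.32% after DNMT1 siRNA. The groups overlapped, and the difference of −4.15 points gave p = 0.2 (two-sided exact permutation test). The mean over all 314 tested sites was 23.34% ± 0.359 in the controls and 18.14% ± 1.16 after DNMT1 siRNA (SD, n = 3 each).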

How the data were processed

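Bisulfite-converted DNA of 6 cardiomyocyte samples was amplified at target regions of 15 genes and sequenced in 1 run. Per the submitters' processing notes, FastQC, Bowtie2 and Bismark were used (versions not given in the sources used here) with mm10, and the study's methods describe a reference built from the target sequences. For each cytosine, the deposited files hold the coverage (the count of reads called) and the percent of C and T, both as the authors computed them. Methylated calls were recovered as coverage times percent, within 4.0e-06 of a whole count.

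Samples were grouped by the treatment label. Sites under 10 calls in any sample were dropped, and the rest were fitted by logistic regression on siRNA group with a likelihood-ratio test (R 4.3.3), in place of methylKit, the package the study names, which was not run here. Adjustment (Benjamini-Hochberg) ran over all 314 sites. The quasi-binomial F test (dispersion at least 1, a limit set after seeing the data) and limma 3.58.1 on log2 ratios of methylated to unmethylated calls (pseudocount 1) were alternatives. Counts were simulated for these 314 sites with 60 lowered by 10 points. Under binomial noise, logistic regression recovered 59 and called 0 of 254 others. With added replicate noise it recovered 60 and called 3, and the quasi-binomial F test recovered 29 and called 0. A fall of 10 points is not possible at Cdkn1B_1, where no control mean exceeded 4.41%. The recovered counts therefore say nothing on the small differences there. The added noise was set smaller than that at position 374 of Cdkn1A_1, where replicates varied with 125 times the variance of counting error. The simulation thus does not vouch for the logistic regression call at that site. Region means are unweighted over sites, and were compared by exact permutation and exact sign-flip tests (Python 3.11.15).

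Without molecular identifiers, intervals (Wilson, 95%) and limits for a count of 0 (3 calls) cover counting error only. Coordinates are from GRCm38.p6, the build named mm10, with GENCODE release M21 gene models and RefSeq promoter windows. Named were all Cdkn1A_1 sites, for Cdkn1B_1 the 3 highest in the controls, the 3 with the largest pooled difference, the 3 least covered and any with an adjusted p under 0.05, and the 3 regions nearest to each promoter. The members and lists were chosen with earlier results of these data known. The negative siRNA titles end in "(2)", which the labels do not explain.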

Additional observations from a re-analysis of the deposited data

How the results depend on the processing

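For Cdkn1A_1, the fall in mean methylation kept its direction under every alternative run (coverage minimum of 1 or 100 calls, coverage weighting, correction for the non-CpG share, each replicate left out, and leaving out position 374), between −16.43 and −20.75 points. The called sites numbered 4 or 5 of 5 throughout: 4 by the quasi-binomial F test, by limma with or without the replicate block, at a 10-point limit, and without negative siRNA replicate 1 or DNMT1 siRNA replicate 2 or 3. The gap between the promoters ranged from 48.59 to 53.27 points with 1 replicate left out, where 5 samples allow no exact p below 0.0625. For Cdkn1B_1, the group difference of the mean ranged from −0.171 to 0.0838 points with 1 replicate left out and turned positive without negative siRNA replicate 3 or DNMT1 siRNA replicate 2 or 3. Its excess of CpG over non-CpG ranged from 0.214 to 0.317 points with 1 replicate left out, was 0.166 points against an unweighted non-CpG mean (p = 0.25, exact sign-flip test) and 0.0120 points past the shared stretch. Its 6 lower sites became 0 by the quasi-binomial F test, 2 by limma and 1 by limma with the replicate block, and its 1 higher site became 0 by each of these and 0 to 1 with 1 replicate left out. With 1 replicate left out, the group difference in non-CpG share ranged from −0.190 to 0.0346 points in Cdkn1A_1, turning positive without negative siRNA replicate 1, and from −0.00596 to 0.00772 points in Cdkn1B_1. The labels do not say whether the replicate numbers pair the samples. Over 314 sites, deviations of same-numbered samples correlated at −0.404, −0.124 and 0.0060, and those of differently numbered samples at −0.325 to 0.311. With 3 samples per group, these values cannot settle whether samples were paired. With the replicate block, the mean difference of Cdkn1A_1 was −18.03 points (p = 0.25, the smallest value that 3 exact sign flips allow) and the sites called were 5 by logistic regression and 4 by limma. The removal of position 374 and the restriction to sites past the shared stretch were chosen after seeing the data. Coverage under 40 calls at position 58 of Cdkn1B_1 limits its mean, and the non-CpG background limits any statement on the rest of that promoter.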
